A study of Mus musculus with 2 samples.

Results

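The catecholamine receptors described here were 9 genes, 3 for dopamine receptors (Drd1, Drd5 and Drd2) and 6 for adrenergic receptors (Adra1a, Adra1b, Adra1d, Adra2a, Adra2c and Adrb1), of 55536 annotated genes in the tables. They were chosen by gene symbol, with earlier results of these data known. The tissue was the hippocampus of B6CASTF1/J females at 10 days of age, F1 hybrids of the C57BL/6J and CAST/EiJ strains, obtained from The Jackson Laboratory. There were 2 total RNA libraries, stranded and depleted of ribosomal RNA, as biological replicates 2 and 1 of 1 group. For each, 3 females were pooled and 300 ng of RNA was used, and the animals carried different numbers in the 2 pools. The tissue label reads layer of hippocampus and names no layer. There was no second condition, so receptor levels were described within the tissue and replicate 2 was set against replicate 1.

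Dopamine and noradrenaline reach the hippocampus in axons from the midbrain and the locus coeruleus, and act there through G protein-coupled receptors. Drd1 and Drd5 couple to Gs and Golf and raise cyclic AMP, whereas Drd2 couples to Gi and Go and lowers it. The alpha1 receptors couple to Gq and phospholipase C, the alpha2 receptors to Gi and Go, and the beta receptors to Gs. These receptors are known in the hippocampus for their part in synaptic plasticity, memory and arousal.

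Transcript variants of Drd2 and Adra1a change the receptor protein, and their sequences are shown because the annotation separates the Adra1a ends in the measurements below and does not separate the Drd2 forms. They are reference transcript sequences of GENCODE M21, written 5′ to 3′ on the transcript strand with mm10 coordinates of the capitals. In Drd2 the capitals mark the exon of the third intracellular loop that is present in the long form and skipped in the short form, an exon of 87 bases at chr9:49403194-49403280 on the plus strand. In Adra1a the capitals mark the coding bases, with the stop codon, that follow the last base shared with the other forms. They lie on the plus strand at chr14:66727832-66727963 for Adra1a-202, at chr14:66731564-66731578 for Adra1a-203 and at chr14:66770585-66770589 for Adra1a-206.
Drd2 alternative exon: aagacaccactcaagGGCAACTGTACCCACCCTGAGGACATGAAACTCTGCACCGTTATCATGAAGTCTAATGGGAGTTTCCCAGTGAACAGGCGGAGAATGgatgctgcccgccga
Adra1a-202: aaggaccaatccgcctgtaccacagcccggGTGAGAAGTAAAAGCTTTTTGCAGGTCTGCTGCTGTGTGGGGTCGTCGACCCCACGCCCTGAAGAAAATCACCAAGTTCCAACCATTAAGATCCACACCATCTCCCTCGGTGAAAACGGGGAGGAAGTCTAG
Adra1a-203: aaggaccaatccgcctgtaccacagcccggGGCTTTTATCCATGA
Adra1a-206: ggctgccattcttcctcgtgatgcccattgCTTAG

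The alignment-based tables held 32275110 expected counts in replicate 2 and 29858328 in replicate 1, of which 0.393% and 0.341% were ERCC spike-ins, synthetic RNAs added to the sample. An expected count is an estimated number of reads and need not be whole. TPM is transcript abundance corrected for length and depth, and a gene was called detected at a TPM of 1 or more in both libraries. All 7 markers of hippocampal excitatory neurons were detected, with summed levels of 1758 TPM in replicate 2 and 1447 TPM in replicate 1. The 6 markers of myelinating oligodendrocytes set the libraries apart, at 570 TPM in replicate 2 and 194 TPM in replicate 1 in sum. Values are given for replicate 2 and replicate 1, and the deposited bounds are the interval the authors' tables give with each TPM. In bulk tissue, fewer cells of a type and less RNA per cell cannot be told apart.

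All 9 receptor genes were detected, as were 13019 of 22015 protein-coding genes (59.1%). The members were chosen with earlier results known, and other receptors of the class, named below, were not detected. Detection of all members is therefore a description and no test. The adrenergic receptors made up most of the signal. Their summed level was 64.05 TPM in replicate 2 and 48.67 TPM in replicate 1, and that of the dopamine receptors was 4.95 and 5.99 TPM. The adrenergic sum was thus 92.8% of all 9 genes in replicate 2 and 89.0% in replicate 1. The adrenergic to dopamine ratio was 10.1-fold, a log2 ratio of 3.33 ± 0.47 (SD, n = 2 libraries). No exact two-sided sign-flip test on 2 libraries can give a p below 0.5, so ratios between genes are descriptions. A pair is said to stand apart where the sign is shared by the libraries and the mean is beyond 2 SD.

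**Figure D1:**
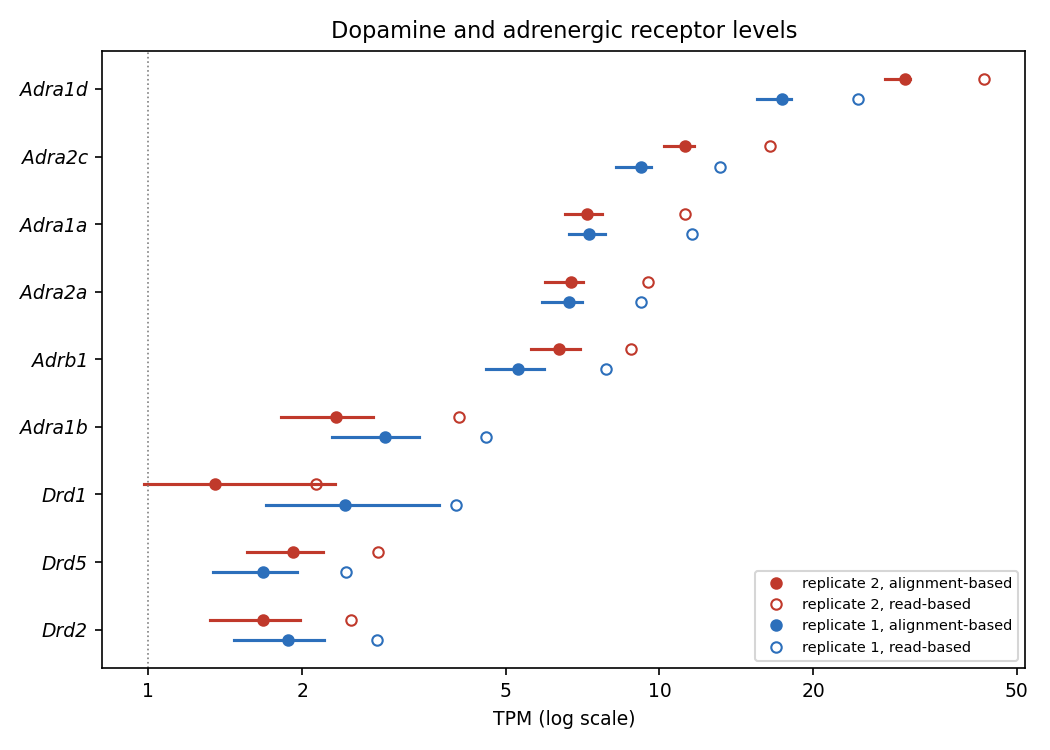
Levels of the 9 receptor genes on a log axis in TPM, with replicate 2 (red) above replicate 1 (blue). Filled points and bars are the alignment-based values with their deposited bounds, open points are the read-based values, and the dotted line is a TPM of 1. Adra1d lies far to the right in both libraries, and the 3 dopamine receptor genes overlap at the low end.

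The 3 dopamine receptor genes were all low and indistinguishable from each other. Drd1 (ENSMUSG00000021478.6, chr13:54051183-54055705, minus strand), the main D1-like receptor of the forebrain, was at 1.35 TPM in replicate 2 and 2.43 TPM in replicate 1. These levels rested on 87 and 131 expected counts, and the deposited bounds, 0.982 to 2.32 TPM and 1.70 to 3.70 TPM, overlapped. Drd5 (ENSMUSG00000039358.3, chr5:38319367-38322518, plus strand), the other D1-like receptor, was at 1.92 and 1.68 TPM from 133 and 106 counts. Its bounds, 1.56 to 2.19 TPM in replicate 2 and 1.34 to 1.96 TPM in replicate 1, overlapped those of Drd1. Drd2 (ENSMUSG00000032259.8, chr9:49340627-49408177, plus strand), the D2-like receptor that also acts as an autoreceptor on dopamine neurons, was at 1.68 and 1.88 TPM from 93 and 95 counts. The mean levels were 1.89 ± 0.764 TPM for Drd1, 1.80 ± 0.170 TPM for Drd5 and 1.78 ± 0.141 TPM for Drd2 (SD, n = 2). Drd1 over Drd2 had a mean log2 ratio of 0.03 ± 0.46, Drd1 over Drd5 of 0.01 ± 0.70 and Drd5 over Drd2 of 0.01 ± 0.24, and the sign differed between the libraries in each pair. No order among these 3 genes could be read from them.

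The Drd1 level also depended on how its reads were divided among transcripts. Drd1-201 (3526 bases) lies wholly within Drd1-202 (3576 bases), which has 50 bases more. Their annotated coding sequences have 446 and 439 codons, with the start codon of Drd1-201 lying 21 bases upstream of that of Drd1-202. The alignment-based table gave Drd1-202 a TPM of 0 in replicate 2 and 1.77 in replicate 1, and gave Drd1-201 1.10 in replicate 2 and 0 in replicate 1. The deposited bounds of each transcript overlapped between the libraries, and the read-based table gave nearly all coding signal to Drd1-202 in both, so the switch was not resolved. A short processed transcript, Drd1-203 (405 bases), added 0.26 TPM in replicate 2 from 1.79 counts and 0.66 TPM in replicate 1 from 4.18 counts. Over coding transcripts alone Drd1 averaged 1.44 ± 0.474 TPM (SD, n = 2), which moved it from above Drd5 to below Drd2 in the order of means. This choice was made after seeing the data. The Drd2 exon printed above is coding exon 5 of 7 in Drd2-201, which has 444 codons. Drd2-201 is the 1 annotated Drd2 transcript, so the long and short forms were not measured separately.

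Among the alpha1 receptors, Adra1d was the highest in both libraries, followed by Adra1a and Adra1b. Adra1d (ENSMUSG00000027335.9, chr2:131545850-131562283, minus strand) was at 30.2 TPM in replicate 2 and 17.3 TPM in replicate 1, from 1232 and 645 counts. Its deposited bounds, 27.7 to 30.9 TPM and 15.5 to 18.1 TPM, did not overlap. It ranked 4686 of 22015 protein-coding genes by mean TPM, above 78.7% of them. The next member, Adra2c, was above 62.7%. Adra1a (ENSMUSG00000045875.13, chr14:66635251-66771168, plus strand) was at 7.23 and 7.29 TPM from 654 and 609 counts, with bounds of 6.55 to 7.73 TPM and 6.65 to 7.82 TPM. Adra1b (ENSMUSG00000050541.14, chr11:43774606-43901210, minus strand) was at 2.33 and 2.90 TPM from 119 and 138 counts. Its libraries differed by less than their bounds of 1.82 to 2.76 TPM and 2.29 to 3.39 TPM. Adra1d was 3.12-fold above Adra1a (log2 ratio 1.64 ± 0.57) and 8.51-fold above Adra1b (3.09 ± 0.78). Adra1b over Adra1a had a log2 ratio of -1.45 ± 0.21 (SD, n = 2 throughout). All 3 pairs stood apart beyond 2 SD. Adra1d held 75.9% of the summed alpha1 TPM in replicate 2 and 63.0% in replicate 1.

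The Adra1a transcripts carried 2 main coding ends. The common end, shared by Adra1a-201, Adra1a-202 and Adra1a-205 with 466 codons each, was at 4.55 TPM in replicate 2 and 3.54 TPM in replicate 1, or 62.9% and 48.5% of the gene. Within it, Adra1a-202 was the most abundant at 3.09 and 3.01 TPM. In Adra1a-203 the same exon is spliced at the last shared base to an exon 3732 bases further on, and the coding sequence ends after 427 codons, as printed above. Adra1a-203 was at 2.42 TPM in replicate 2 and 3.28 TPM in replicate 1, or 33.5% and 44.9% of the gene. The bounds, 1.43 to 3.16 TPM and 2.46 to 3.67 TPM, overlapped. The read-based table gave Adra1a-203 28.4% and 31.5%. The shorter end was thus present in both libraries and both tables, at a share that was not settled between them. Adra1a-206, which leaves the coding sequence early after 295 codons, was at 0.07 and 0.09 TPM, and the retained-intron transcript Adra1a-204 at 0.19 and 0.39 TPM.

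Transcription starts of Adra1b lie 64878 bases apart in the annotation. The downstream start, that of Adra1b-202 and Adra1b-204, took 46.2% of the gene TPM in replicate 2 and 49.7% in replicate 1 in the alignment-based table. The read-based table gave it 18.7% in replicate 2 and close to 0 in replicate 1, so its use was not settled by these tables. Adra1b-202 and Adra1b-204 are identical in sequence over 3047 bases and cannot be told apart by reads. The leading Adra1b transcript, Adra1b-203 with 53.8% and 50.3%, has a coding sequence whose annotated end is incomplete. Adra1d has 1 annotated transcript, so no such split affects its level. A gene on the opposite strand, Gm14285, overlaps Adra1d at chr2:131561614-131562283 and shares 118 of the 1869 distinct 31-base words of Adra1d. It held 22 and 13 counts against 1232 and 645 for Adra1d, and whether the counting used strand is not stated in the labels or headers.

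Both alpha2 receptor genes were well above the dopamine receptor genes. Adra2c (ENSMUSG00000045318.6, chr5:35278319-35281763, plus strand) was at 11.2 TPM in replicate 2 and 9.20 TPM in replicate 1, from 852 and 636 counts, with bounds of 10.2 to 11.7 TPM and 8.24 to 9.63 TPM that did not overlap. Adra2a (ENSMUSG00000033717.6, chr19:54044151-54048982, plus strand), the main inhibitory autoreceptor of noradrenaline neurons, was at 6.71 and 6.66 TPM from 541 and 499 counts. Its bounds, 5.98 to 7.10 TPM and 5.89 to 7.05 TPM, nearly coincided. Adra2c was 1.51-fold above Adra2a (log2 ratio 0.60 ± 0.19). Most Adra2a signal lay on Adra2a-202, which starts 1109 bases downstream of Adra2a-201 and splices out an intron of 129 bases. It took 94.6% in replicate 2 and 89.5% in replicate 1, and 79.7% and 71.3% in the read-based table. Adra2c has 1 annotated transcript. Neither alpha2 gene shares a 31-base word with any other annotated gene.

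Adrb1 (ENSMUSG00000035283.5, chr19:56722199-56733113, plus strand), the beta receptor that raises cyclic AMP in forebrain neurons, was at 6.36 TPM in replicate 2 and 5.28 TPM in replicate 1. It had 399 and 299 counts, and the bounds of 5.62 to 7.0 TPM and 4.58 to 5.95 TPM overlapped slightly. Adrb1-201 held 96.5% and 95.3% of it. Adrb1 stood below Adra2c in both libraries, with a log2 ratio of -0.80 ± 0.01, and was of about the level of Adra2a.

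**Figure D2:**
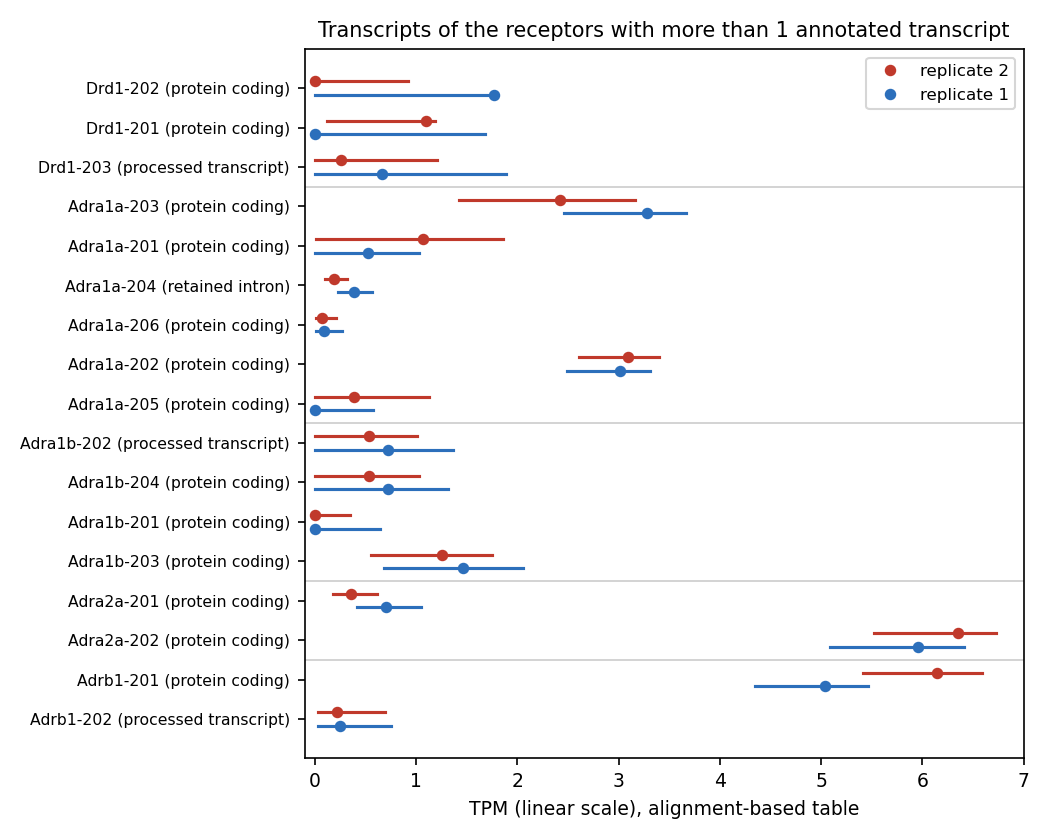
TPM on a linear axis of each annotated transcript of the 5 receptor genes with more than 1, from the alignment-based table, with replicate 2 (red) above replicate 1 (blue). Bars are the deposited bounds. Adra2a-202 and Adrb1-201 carry most of their genes in both libraries, Adra1a is divided between Adra1a-202 and Adra1a-203, and the bars of Drd1-201 and Drd1-202 reach to near 0.

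By mean TPM the order was Adra1d, Adra2c, Adra1a, Adra2a, Adrb1, Adra1b, Drd1, Drd5 and Drd2. Of the 8 pairs of neighbours in this order, 4 stood apart beyond 2 SD. Adra1d was above Adra2c by a log2 ratio of 1.16 ± 0.36, Adra2c above Adra1a by 0.48 ± 0.21, and Adrb1 above Adra1b by 1.13 ± 0.40. Adra1a was above Adra2a by 0.12 ± 0.02, although their deposited bounds overlapped in each library. Adra2a and Adrb1 (0.20 ± 0.18), Adra1b and Drd1 (0.50 ± 0.35) and both pairs of dopamine receptor genes did not differ beyond the spread. The read-based table kept the order of the 6 adrenergic genes and of Drd1 after them. It set Drd2 (2.65 ± 0.220 TPM) just above Drd5 (2.63 ± 0.268 TPM), put Adra2c over Adra1a within its spread (0.36), and put Adra2a beyond 2 SD above Adrb1 (0.17). Read-based TPM was 1.38 to 1.74 times the alignment-based value in the 9 genes. The median of 13019 detected protein-coding genes was 1.58 in replicate 2 and 1.56 in replicate 1.

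Apart from levels, the annotation shows a compact coding structure for 5 of these genes, whereas Drd2 has 7 coding exons. A single coding exon was annotated for 5 of the 9 (Adra2a, Adra2c, Adrb1, Drd1 and Drd5), against 6.96% of 12991 detected protein-coding genes with a complete coding sequence. GC content of the coding sequence was 68.7% in Adrb1, 65.8% in Adra2c, 65.2% in Adra2a and 64.7% in Adra1d, all above the 95th percentile of these genes (63.4%). The other members ran from 50.3% in Drd1 to 60.6% in Adra1b, and the median gene had 53.3%. Adra2a and Adrb1 lie 2.67 Mb apart on chromosome 19, and Adra2c and Drd5 lie 3.04 Mb apart on chromosome 5. No 31-base word was shared between any members, so an exact match of that length tells the receptor genes apart. Drd5 shares 1501 of its 3122 words with the antisense gene Gm26560, which was listed with 1 count in each library.

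Replicate 2 was then set against replicate 1. Rounded expected counts of 20544 genes entered an exact conditional binomial test, two-sided, with Benjamini-Hochberg adjustment over all of them. With 1 library on each side there is no replicate check, and the test speaks of these libraries rather than of a condition. At an adjusted p under 0.05 and a log2 ratio of at least 1 in size, 0 of the 9 receptor genes were called, against 2.83% of all genes tested. These were 582 genes, 118 higher (0.574%) and 464 lower (2.26%) in replicate 2. Scaling to the ERCC spike-ins made them 88 higher and 1188 lower. With no threshold on the ratio, 4 of the 9 passed, against 27.1% of all genes. Of these, 3 were higher in replicate 2 (15.7% of all genes) and 1 was lower (11.5%). Scaled to the spike-ins, 5 of the 9 passed, with Adra1d higher and Drd1, Adra1a, Adra1b and Adra2a lower in replicate 2. The balance of directions thus depended on the scaling. The share of all genes that passed with spike-in scaling and no ratio threshold was not computed. The median protein-coding gene then had a log2 ratio of -0.26, so lower ratios were not particular to the receptors. The log2 ratios were positive in 6 members and negative in 3.

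Adra1d differed most. Its 1232 counts in replicate 2 and 645 in replicate 1 gave a log2 ratio of 0.90 ± 0.07 (counting SE), or 1.87-fold, with an exact binomial Benjamini-Hochberg adjusted p of 1.6e-37. Only 0.250% of 4008 protein-coding genes with 1000 to 3000 summed counts had a log2 ratio as far from 0, where the 5th and 95th percentiles were -0.27 and 0.31. It was higher in replicate 2 under each of the 4 scalings, at 0.62 to 0.91, and at 0.94 in the read-based table. Adra2c had 852 and 636 counts, a log2 ratio of 0.39 ± 0.08 and an adjusted p of 3.3e-06, and 3.97% of the same genes were as far from 0. Adrb1 had 399 and 299 counts, a log2 ratio of 0.38 ± 0.11 and an adjusted p of 0.0034 by the same exact test, and 11.0% of 3273 genes with 300 to 1000 counts were as far from 0. Scaled to the spike-ins, Adra2c was at 0.10 with an adjusted exact p of 0.241 and Adrb1 at 0.10 with 0.478.

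Drd1 had 87 counts in replicate 2 and 131 in replicate 1, a log2 ratio of -0.62 ± 0.20 with an exact adjusted p of 0.0093. With the TMM scaling used here it was the only member lower in replicate 2 by this test, and 9.38% of 1705 genes with 100 to 300 counts were as far from 0. The other 5 members had adjusted exact p-values of 0.267 to 0.894, with log2 ratios of 0.29 ± 0.19 for Drd5, 0.08 ± 0.09 for Adra2a, 0.07 ± 0.08 for Adra1a, -0.06 ± 0.21 for Drd2 and -0.25 ± 0.18 for Adra1b. Scaled to the spike-ins, Adra1b was at -0.53 with an exact adjusted p of 0.0088. Adra1a and Adra2a then changed sign, at -0.21 and -0.20, with exact adjusted p-values of 0.019 and 0.049. The median protein-coding gene had a log2 ratio of -0.26 by the spike-ins, against 0.03 with the TMM scaling used here.

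**Figure D3:**
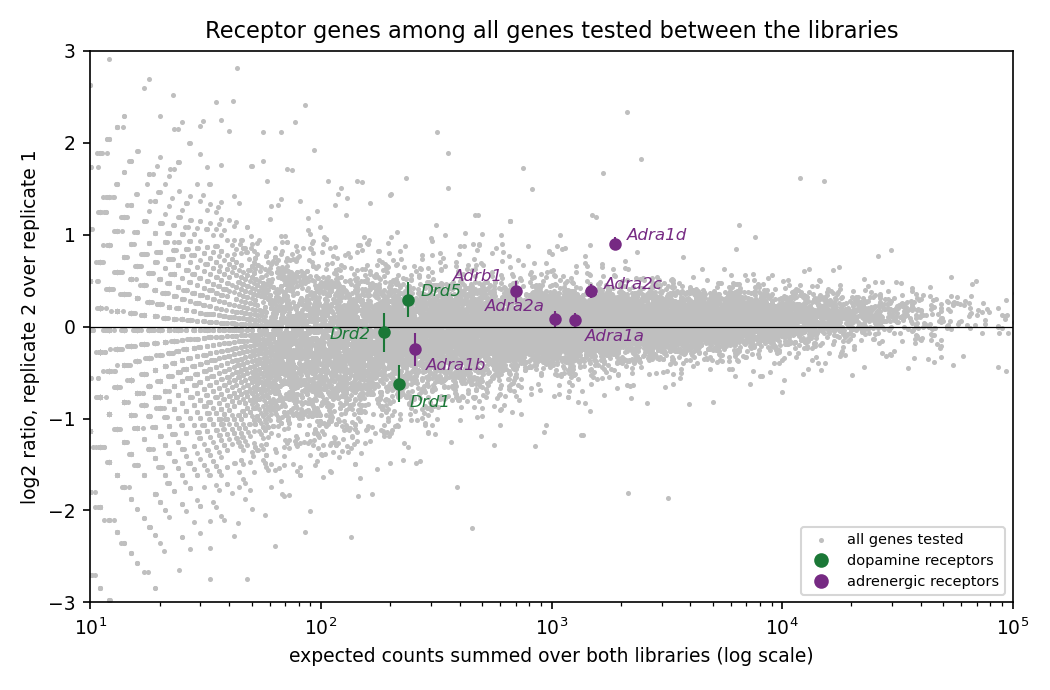
Log2 ratio of replicate 2 over replicate 1 against expected counts summed over both libraries (log axis), for all 20544 genes tested (grey), dopamine receptors (green) and adrenergic receptors (purple), with counting SE as bars. Adra1d lies above the grey band at its count, and Drd1 lies in the lower part of a wider band. The axes leave out 108 of the grey genes.

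Other receptors of the class were low. Adrb3, the beta receptor of fat cells, was at 0.28 TPM in replicate 2 and 0.18 TPM in replicate 1, from 15 and 8 counts. Drd4, a D2-like receptor, was at 0.13 and 0.24 TPM from 8 and 11 counts. Drd3 at 0.14 and 0.18 TPM and Adra2b at 0.07 and 0.10 TPM were named after their values were seen. None of these 4 reached the level of Drd2, the lowest of the 9 receptors described here.

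The enzymes and transporters of catecholamine neurons were mostly below detection too. As background, the cell bodies of these neurons lie in the midbrain and brainstem. Th, the rate-limiting enzyme of catecholamine synthesis, was at 0.38 TPM in replicate 2 and 0.28 TPM in replicate 1, from 15 and 8 counts. Of the 5 markers of catecholamine neurons only Slc18a2, the vesicular monoamine transporter that serotonin neurons also use, was detected, at 3.02 and 2.99 TPM. The summed level of this list was 3.92 TPM in replicate 2 and 3.77 TPM in replicate 1, and none of its markers was at 0. Ddc, the aromatic amino acid decarboxylase shared with serotonin synthesis, was at 3.65 and 3.11 TPM.

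Genes of uptake and breakdown were detected in 4 of 7 cases. Slc29a4, the plasma membrane monoamine transporter, was the highest at 33.6 TPM in replicate 2 and 36.8 TPM in replicate 1. Maoa, a monoamine oxidase, was at 12.4 and 13.2 TPM. Slc22a3, the extraneuronal monoamine transporter, was at 0.75 and 1.85 TPM from 58 and 130 counts. Its log2 ratio was -1.19 ± 0.23 with an exact adjusted p of 6.5e-07. It was the only called gene among the 57 other pathway genes tested, against 2.83% of all genes tested. These transporters and enzymes clear catecholamines after release.

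Leading genes of the G proteins and their effectors were more abundant than the receptors, and others of these lists were not. Gnas, which encodes Gs, was at 998 TPM in replicate 2 and 819 TPM in replicate 1, and Gnal, which encodes Golf, at 51.1 and 54.7 TPM. Gnao1, which encodes Go, was at 359 and 394 TPM, Gnai2 at 113 and 115 TPM, and Gnaq at 85.2 and 85.8 TPM. All 8 adenylyl cyclase genes and all 4 phospholipase C beta genes of the list were detected, led by Adcy1 at 79.9 and 91.3 TPM and Plcb1 at 45.6 and 43.9 TPM. On this scale per length, each of these named genes was above every receptor gene. At the low end, Gna14 at 0.53 and 0.26 TPM, Plcb2 at 1.00 and 1.27 TPM and Adcy7 at 1.71 and 2.66 TPM, named after their values were seen, were no higher than about the level of the dopamine receptor genes.

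Genes of receptor desensitisation and partner binding were all detected. Arrb1, a beta-arrestin, was at 83.8 TPM in replicate 2 and 84.1 TPM in replicate 1, and Grk2, a receptor kinase, at 67.3 and 64.3 TPM. Among binding partners, the postsynaptic scaffold Dlg4 was at 322 and 309 TPM, Ppp1r9b (spinophilin) at 254 and 219 TPM, and Caly (calcyon) at 107 and 110 TPM. Downstream, the protein kinase A subunits Prkacb and Prkaca were at 119 and 113 TPM and at 116 and 105 TPM. Of the 58 other pathway genes 46 were detected and 57 were tested between the libraries. By the test with both thresholds 0 were called higher and 1 lower in replicate 2, against 0.574% and 2.26% of all genes tested. By adjusted p alone 22 were higher and 5 lower, 47.4% of those tested against 27.1% of all genes, at a median log2 ratio of 0.09 against -0.01 for all genes tested. These shares are not matched for counts. High counts let small log2 ratios pass, as for Gnaq at 0.15 and Adcy1 at -0.09. The directions are those with the TMM scaling. Among the tested pathway genes the median size of the log2 ratio was 0.17.

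**Figure D4:**
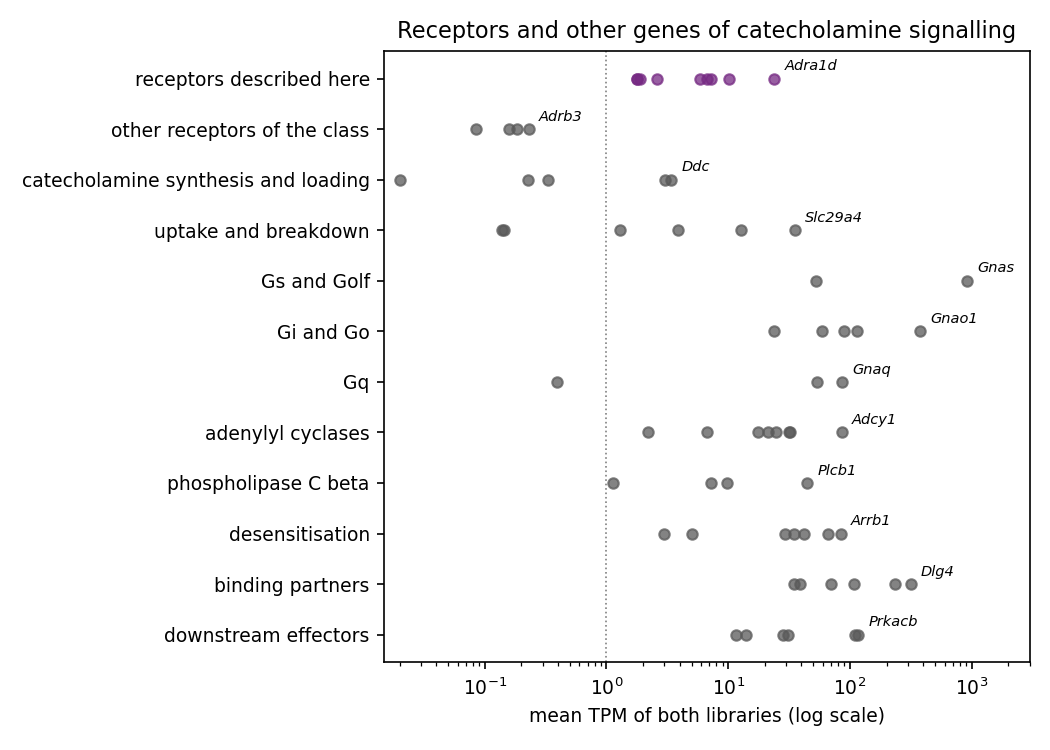
Mean TPM of both libraries on a log axis for the 9 receptor genes (purple) and 56 other genes of catecholamine signalling by role (grey), with the dotted line at a TPM of 1 and the highest gene drawn in each role named. The other receptors drawn lie left of the line, and the G protein and effector genes reach from below the line to far right of the receptors.

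Marker lists of cell types and neighbouring tissue were set beside the member ratios. All 6 myelinating oligodendrocyte markers were called higher in replicate 2, with a median log2 ratio of 1.72, and the level sums were given above. Hippocampal excitatory neuron markers had a median of 0.32 over 7 genes, and interneuron markers of 0.18 over 6 genes. Of the interneuron markers Pvalb was called higher. Markers of neocortex and subiculum had a median of -0.33 over 6 genes, summed to 102 TPM in replicate 2 and 148 TPM in replicate 1, and 1 of them, Nts, was called lower. Markers of thalamus had a median of -0.19 over 6 genes and summed to 60.3 and 80.2 TPM, but the list was split. Log2 ratios were negative for Slc17a6 (-0.83), Tcf7l2 (-0.64) and Lef1 (-0.50), and positive for Rora (0.18), Prkcd (0.14) and Plekhg1 (0.13). Striatal projection neuron markers, the cells in which Drd1 and Drd2 are best known, had a median of 0.02 over 7 genes and summed to 64.1 and 66.6 TPM. Medians of the astrocyte (0.15), catecholamine neuron (0.20), endothelial and mural (0.13) and meningeal fibroblast (-0.03) lists lay between these. With the TMM scaling, medians were thus positive in 7 of the 10 lists and negative in 3. Those of the striatal (0.02) and meningeal fibroblast (-0.03) lists lay near the median of all genes tested (-0.01), so their signs say little. Spike-in scaling lowered the log2 ratio of every member, that of Adra1d to 0.62 and that of Adra1a to -0.21. The list medians were not recomputed with it, but this scaling shifts every gene by the same amount, as Adra1d from 0.90 to 0.62. After that shift only the myelinating oligodendrocyte and hippocampal excitatory neuron medians would stay positive. The signs counted above are thus those of the TMM scaling only. Every gene of the lists was detected except 4 of the catecholamine neuron list. The part of any of these cell types in the receptor differences was not tested.

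**Figure D5:**
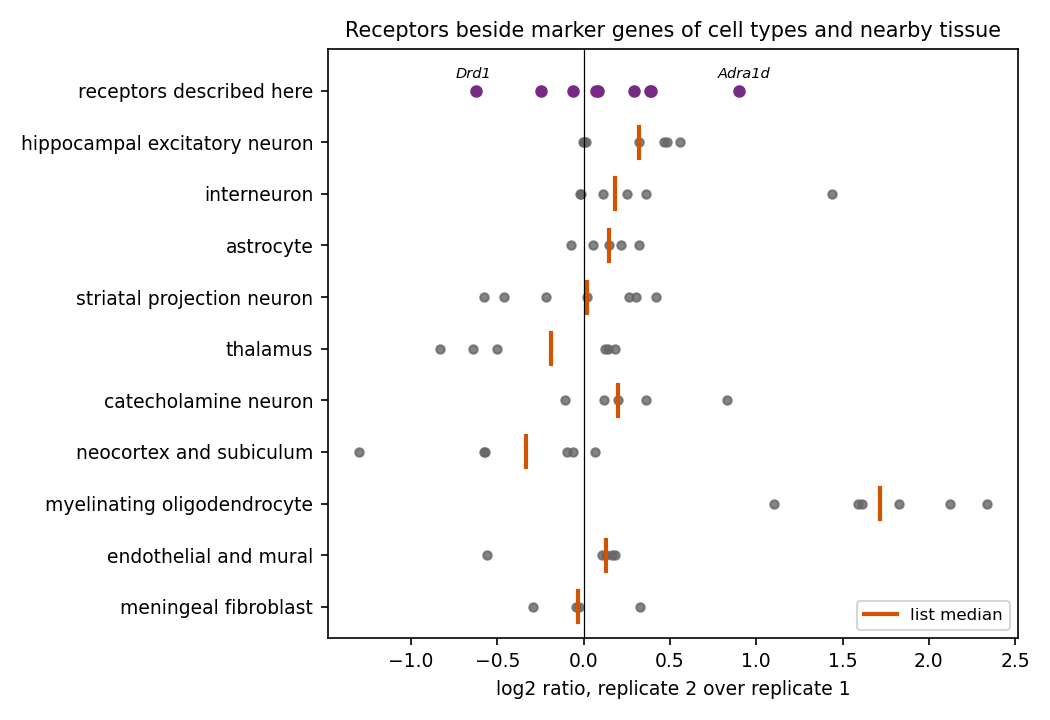
Log2 ratio of replicate 2 over replicate 1 for the 9 receptor genes (purple) and for each gene of the marker lists (grey), with the list median as an orange bar. The myelinating oligodendrocyte genes lie between 1.10 and 2.33, to the right of Adra1d at 0.90, and Drd1 at -0.62 lies among the lower genes of the thalamus, striatal and neocortex and subiculum lists.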

How the data were processed

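Total RNA-seq of 2 libraries was analysed. Per the labels the build was mm10, and per the submitters' processing notes the annotation was M21. The programs behind the tables and their versions are not stated in the labels or headers. Expected counts, TPM and FPKM were deposited by the authors per gene and transcript, estimated from transcriptome alignments (alignment-based). The deposited read-based transcript table held estimated counts and TPM, which were summed per gene. Deposited bounds were used as given.

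The members and gene lists were chosen with earlier results of these data known. All 9 members were named, with up to 3 genes per pathway role by mean TPM and any called different. Ratios between genes used a pseudocount of 0.1 TPM. Libraries were compared by an exact conditional binomial test, with TMM library sizes over genes with 10 or more counts, a pseudocount of 0.5 counts and Benjamini-Hochberg adjustment over 20544 genes. Count bins were set after counts were seen. Alternatives were other scalings, filters, pseudocounts, tables and each library alone. The share of the Drd2 long form could not be computed. The test was checked on simulated data. Tools were R 4.3.3, edgeR 4.0.16, limma 3.58.1, DESeq2 1.42.0 (size factors only), Python 3.11.15, numpy 2.4.6, scipy 1.17.1 and pandas 2.3.3. A count of 0 allows up to 3 counts. With no strand use stated, antisense overlaps remain uncertain. Some genes of the pathway list enter the counts but are not reported here by name.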

Additional observations from a re-analysis of the deposited data

How the results depend on the processing

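Of 287 values recomputed under alternatives, 248 kept their call or stayed within the allowed range, 1 became weaker, 1 stronger, 34 moved and 3 reversed. Among the 248 are the levels and pair ratios from each library alone, whose outcome was fixed in advance. With 2 libraries either value always lies within the SD around their mean, so these values are no check of stability. The 248 include pairs of dopamine receptor genes that were within the spread throughout and changed sign, such as Drd1 over Drd5 at -0.48 in replicate 2 alone and -0.34 over coding transcripts. The 3 reversed values were log2 ratios of Adra1a, at -0.0089 with total counts and -0.21 with spike-in scaling, and of Adra2a, at -0.20 with spike-in scaling. The causes were not tested. The summed level of the 9 genes, 61.8 TPM, was 90.3 in the read-based table, 138.0 with TPM taken over nuclear protein-coding genes and 43.2 in FPKM, and 54.66 to 69.0 with either library left out. Genes called between the libraries, 582 in all, were 1276 with spike-in scaling, 311 at a minimum of 50 counts and 5572 without a ratio threshold, where 4 members in place of 0 were called. Detected members numbered 8 in FPKM, where Drd1 fell short, and 6 at a TPM of 2, where the dopamine receptor genes fell short. With either library left out, 9 to 9 members were detected and 4 to 4 genes had a leading transcript, as Drd1 then had one. For Drd1 it was not the same one, but Drd1-201 at 80.9% in replicate 2 and Drd1-202 at 72.8% in replicate 1. Counts of pairs beyond 2 SD could not be computed from 1 library, and the Drd2 long form share had no value. No paired analysis was possible because there was only 1 group. The dopamine receptor genes rested on 87 to 133 counts per library, which limits their order, their transcript shares and any difference between the libraries. The deposited bounds and counting SEs cover counting and estimation error only, whereas each SD is the spread between the 2 libraries, and n is 2 pools.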
